A study of Mus musculus with 8 samples.

Results

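Fatty acid oxidation genes were examined in bone marrow cells labelled as stem cells from CML mice that were untreated or given imatinib (IM), a tyrosine kinase inhibitor (TKI) of BCR-ABL. The 36 genes are named members of the pathway that were matched by symbol, and all 36 were among the 15576 genes of the bulk RNA-seq table. The study asked how leukemic stem cells (LSCs) persist under TKI without new mutations, with STAT3 and metabolism as its subjects. The mice were BCR-ABL×SCL-tTA transgenics on a C57BL/6 background in both groups, in which the SCL promoter drives the transactivator in stem and progenitor cells and BCR-ABL is switched on when tetracycline is withdrawn. The CML group was untreated, and the CML-TKI group was given 400 mg/kg IM by gavage on alternate days for 4 weeks, or 30 days in another field of the labels, and a figure legend of the paper gives a lower dose for these mice. Neither the age of the mice nor pooling was given. The labels name the same sorted fraction, Lin-Sca1+cKit+Flt3-CD150-CD48+, for all 8 libraries, whereas the paper defines LSCs as CD150-positive and CD48-negative. 4 CML libraries, called CML 1, 2, 3 and 5 after their columns, were compared with 4 CML-TKI libraries, 1 to 4. The labels do not say that they came from separate animals, so that p-values measure the spread between these libraries. Markers of the labelled stem cells (4 of 9 tested called lower in CML-TKI libraries) and of granulocytes (12 of 13 called higher) differed between the groups, so libraries are called by their group labels.

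Fatty acid oxidation breaks fatty acids down to acetyl-CoA. Acyl-CoA synthetases first activate the fatty acid, carnitine acyltransferases carry long chains into mitochondria, and a repeated cycle of dehydrogenation, hydration, a further dehydrogenation and thiolysis shortens the chain, with electrons from the acyl-CoA dehydrogenases passing through electron transfer flavoprotein to the respiratory chain. Unsaturated chains need auxiliary isomerases and reductases, very long and branched chains are shortened in peroxisomes, and PPAR receptors with PGC-1 coactivators control many of these genes. In hematopoietic stem cells the pathway has been linked to self-renewal.

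Most members were expressed in both groups, and 2 were called as different. Members that were not called are not shown to be unchanged. In CML-TKI libraries, Crat, the carnitine acetyltransferase, rose, and Decr1, the mitochondrial dienoyl-CoA reductase of unsaturated fatty acids, fell. After removal of genes with too few counts, 33 of the 36 members were tested with edgeR's quasi-likelihood test among 11937 genes. These 2 of 33 members were past the adjusted p threshold of 0.05, which is 6.06% of those tested, where 10.2% of all genes were past it (6.29% higher and 3.93% lower in CML-TKI libraries). At an unadjusted p under 0.05 there were 10 members (30.3%) against 25.7% of all genes. The log2 fold change, given throughout as CML-TKI over CML, was above 0 for 16 members and below 0 for 17. Their median log2 fold change was -0.03, and that of all genes was -3e-04.

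**Figure D1:**
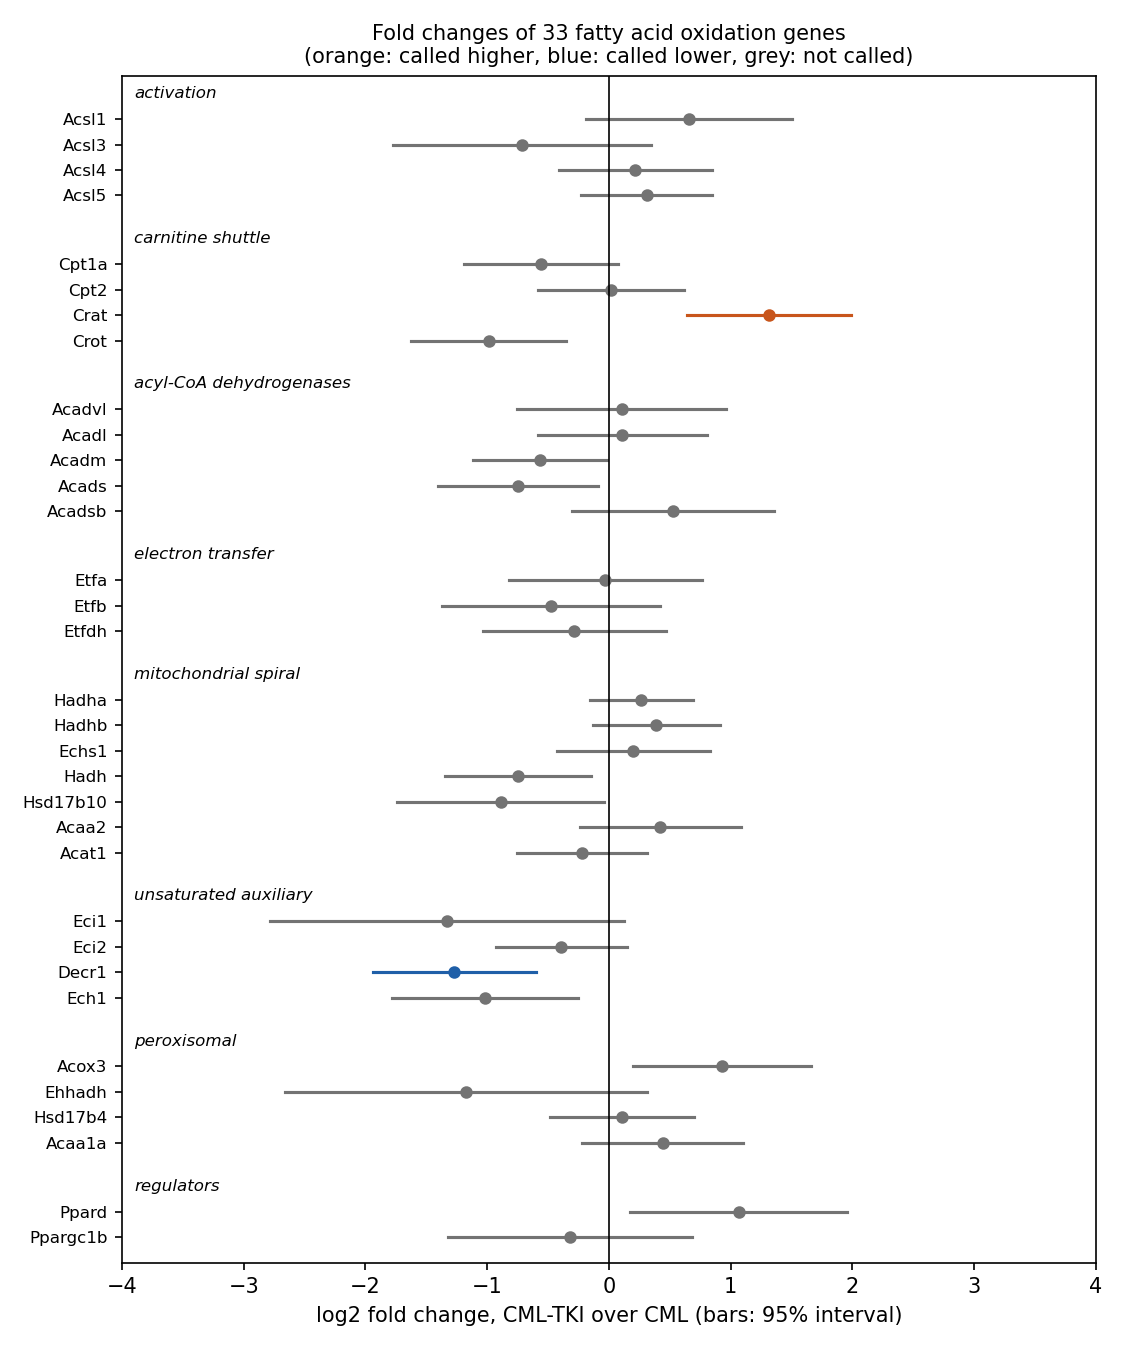
Log2 fold change (CML-TKI over CML, x axis) of the 33 members tested, grouped by role, with 95% intervals from edgeR's quasi-likelihood fit on 4 against 4 libraries. Crat at 1.32 and Decr1 at -1.27 are the 2 members past the adjusted threshold, and the 4 genes for unsaturated fatty acids all lie left of 0.

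The groups of libraries were compared for overlap as a description of each gene. In 9 of 33 members (27.3%) the values of the groups were fully separated, where 23.4% of all genes did so. Crat and Ppard were higher without overlap (6.06% of members, 10.3% of all genes). Decr1, Crot, Ech1, Eci1, Hadh, Hsd17b10 and Ehhadh were lower without overlap (21.2% of members, 13.1% of all genes). Without CML-TKI 1, 6 members were higher (18.2%, where 15.4% of all genes were) and 9 lower without overlap (27.3%, where 20.7% of all genes were). With library totals that leave out the ribosomal gene Rn45s in place of TMM, 2 were higher (6.06% against 8.23% of all genes) and 10 lower (30.3% against 16.4%). The members summed to between 1593 and 1700.3 CPM (TMM-normalized counts scaled to library size) in the CML libraries, and to 1289, 1586, 1643 and 1705 CPM in CML-TKI libraries 1 to 4, so that the groups overlapped and CML-TKI 1 was lowest.

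**Figure D2:**
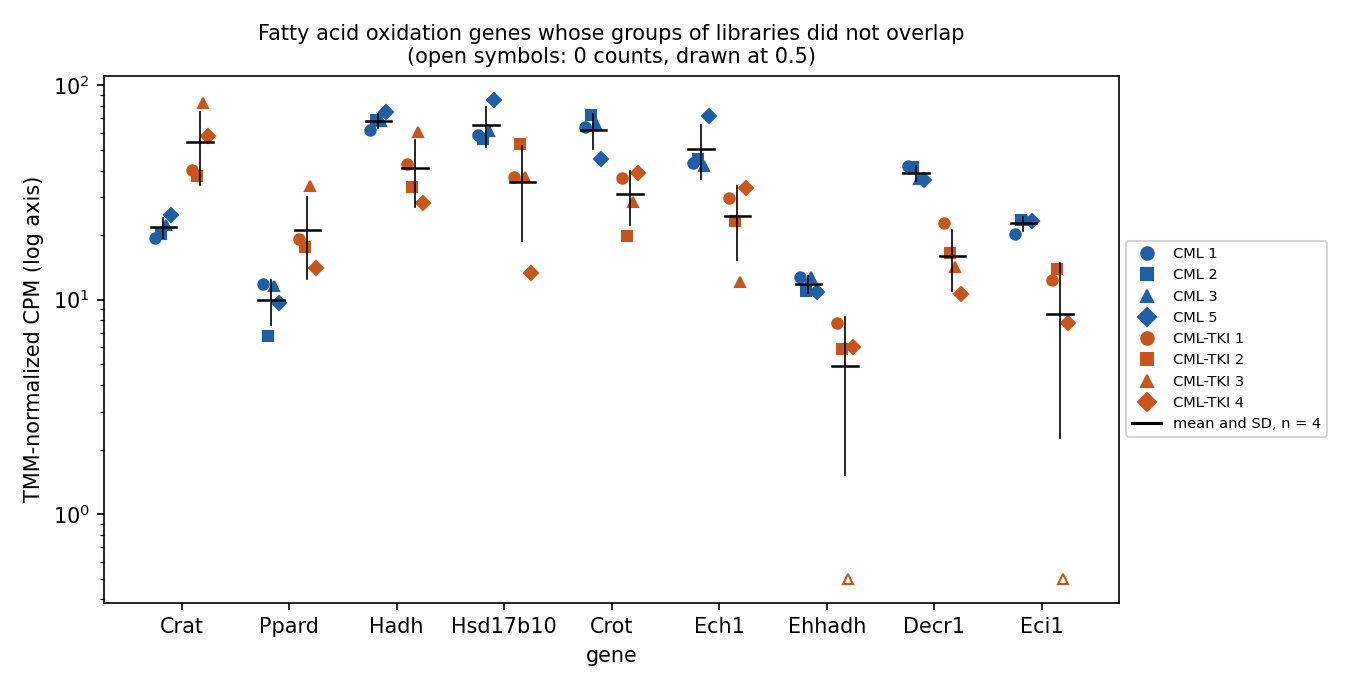
TMM-normalized CPM (log axis) of the 9 members whose groups did not overlap, by library, with means and SDs (n = 4). Crat and Ppard are higher in every CML-TKI library, the other 7 are lower, and Eci1 and Ehhadh had 0 counts in CML-TKI 3.

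Depth, the share of Rn45s and cell markers differed between the libraries and moved in part with the groups, though the ranges of depth and Rn45s overlapped. Total counts were between 4939644 and 8620101 in CML libraries and between 1041552 and 5104268 in CML-TKI libraries. A floor of 3 counts corresponds to between 0.409 and 0.58 CPM in CML and between 0.57 and 3.29 CPM in CML-TKI libraries, with the highest floor in CML-TKI 3, and it covers counting error only. Rn45s took 20.2% to 38.3% of the counts in CML and 9.23% to 22.5% in CML-TKI libraries. Among CML 1 to 3 the biological coefficient of variation was 11.0%, against 28.2% for all 4 CML and 68.6% for the CML-TKI libraries. Of the granulocyte markers 12 of 13 were called higher in CML-TKI libraries, with a summed level of 191 to 308 CPM in CML and 1539 to 8686 CPM in CML-TKI libraries, the lowest in CML-TKI 1. Of the monocyte markers 8 of 9 were called higher (27 to 48.8 and 549 to 2935 CPM). Of the 9 HSC markers tested 4 were called lower and 0 higher, and Ctnnal1 was highest in CML-TKI 1, and the list of 10 summed to 1126 to 1417 CPM in CML and 27 to 389.6 CPM in CML-TKI libraries. The megakaryocyte list (2 of 6 called lower) summed to 1202 to 1446 and 48.7 to 584 CPM, the eosinophil list (3 of 3 tested called higher) to 4.05 to 35.6 and 43.8 to 2587 CPM, and the basophil and mast cell list (1 of 1 tested called higher) to 2.06 to 4.05 and 4.38 to 1164 CPM. In the erythroid list none of the 6 tested was called, and its sum reached 31624 CPM in CML-TKI 3 with at most 500.5 CPM in the other libraries. Lymphoid markers, none of which had enough counts for a test, summed to at most 2.72 CPM in CML and to between 7.6 and 220.3 CPM in CML-TKI libraries, with Dntt and Cd3e at 0 in every CML library. The adipocyte and stroma list (0 of 4 called) summed to 590 CPM in CML 3 and 250.8 CPM in CML 5 and to at most 144.7 CPM in the others, with Adipoq at 0 in every CML-TKI library, and the endothelial list (1 of 4 called lower) to 83.2 to 193 and 43.3 to 114 CPM. Of the genes of the sort gate, Slamf1 (CD150) and Kit were called lower, Cd48 was called higher, and Ly6a and Flt3 were not called. The part of these cell types in the results below was not tested, and in bulk samples fewer cells of a type and less RNA per cell cannot be told apart.

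Promoter sequences were read to show what the members share beyond their role. RefSeq (GRCm38.p6) windows were found for 29 of the 36 members, 32 windows in all, and the 250 bases before the 1 transcript start of each window were searched on both strands. The members without a window were Acaa2, Acat1, Cpt1b, Crat, Decr1, Hsd17b4 and Ppargc1b. The nuclear receptor element AGGTCA, the core that PPAR and related receptors bind, was found in 5 of 32 windows (15.6%), those of Acadm, Acadvl, Acsl6, Cpt1a and Echs1, and in 14.0% of the 32851 windows of all genes. A direct repeat of AGGTCA with any 1 base between the copies was in 0 member windows and in 0.033% of all. The STAT element TTCNNNGAA was in 3 windows (9.38%; Cpt2, Hadha and Hadhb) against 7.02% of all, but the windows of Hadha and Hadhb overlap and hold the same match. The NRF1 element, GCGCA and GCGC with any 1 base between them, was in 3 (9.38%; Etfb, Etfdh and Ppara) against 3.74%. The GC box GGGCGG was in 25 windows (78.1%) against 32.7% of all, and the windows of Hadha and Hadhb again share 1 match. The windows of all genes were not matched to those of the members for GC content, which was 48.4% to 76.4% in the members. These matches are letters in a window and not shown to be sites. Shown are the windows of Cpt1a, the entry gene of the mitochondrial pathway, at chr19:3323051-3323300 (plus strand), and of 4 genes that were lower in every CML-TKI library, Crot at chr5:8997147-8997396 (minus strand), Hadh at chr3:131272102-131272351 (minus strand), Ech1 at chr7:28825088-28825337 (plus strand) and Eci1 at chr17:24426433-24426682 (plus strand). Capitals mark AGGTCA or GGGCGG on either strand (TGACCT and CCGCCC are the same letters read on the other strand).
Cpt1a: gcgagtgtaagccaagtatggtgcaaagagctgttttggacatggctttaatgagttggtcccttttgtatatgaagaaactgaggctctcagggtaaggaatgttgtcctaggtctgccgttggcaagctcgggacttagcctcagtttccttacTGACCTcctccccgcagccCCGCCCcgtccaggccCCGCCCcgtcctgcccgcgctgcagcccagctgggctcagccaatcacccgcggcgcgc
Crot: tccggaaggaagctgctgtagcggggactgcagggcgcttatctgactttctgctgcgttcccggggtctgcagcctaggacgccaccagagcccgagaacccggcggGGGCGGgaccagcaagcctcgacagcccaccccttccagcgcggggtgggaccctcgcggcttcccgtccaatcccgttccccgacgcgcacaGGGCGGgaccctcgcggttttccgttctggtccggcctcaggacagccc
Hadh: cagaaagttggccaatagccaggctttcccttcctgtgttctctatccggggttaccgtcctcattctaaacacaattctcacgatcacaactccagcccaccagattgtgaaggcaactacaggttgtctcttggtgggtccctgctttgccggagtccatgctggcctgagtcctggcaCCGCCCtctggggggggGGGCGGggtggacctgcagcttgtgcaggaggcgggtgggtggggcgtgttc
Ech1: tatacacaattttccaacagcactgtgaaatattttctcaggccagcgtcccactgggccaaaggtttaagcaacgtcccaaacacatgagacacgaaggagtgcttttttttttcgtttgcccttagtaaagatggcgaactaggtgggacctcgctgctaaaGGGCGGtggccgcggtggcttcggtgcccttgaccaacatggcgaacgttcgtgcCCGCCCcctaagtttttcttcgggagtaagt
Eci1: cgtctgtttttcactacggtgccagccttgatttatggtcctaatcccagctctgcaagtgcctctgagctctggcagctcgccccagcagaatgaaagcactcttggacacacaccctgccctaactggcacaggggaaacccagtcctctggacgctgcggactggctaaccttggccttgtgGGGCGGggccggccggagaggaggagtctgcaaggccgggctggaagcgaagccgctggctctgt
The Cpt1a window holds 1 AGGTCA match, which begins 94 bases before the transcript start used, and 2 GC boxes, and it lies inside the span of the gene (3322326 to 3385735). The other 4 windows hold no AGGTCA, and 2 (Crot, Hadh, Ech1) or 1 (Eci1) GC boxes.

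The carnitine acyltransferases held the member that rose. Crat, which converts acetyl-CoA to acetylcarnitine and back, lies on chromosome 2 of GRCm38 from 30400476 to 30416017 on the minus strand. Crat was measured at 19.5, 20.3, 22.2 and 24.9 CPM in CML libraries 1, 2, 3 and 5 and at 40.3, 37.8, 82.2 and 58.0 CPM in CML-TKI libraries 1 to 4. The lowest CML-TKI library was above the highest CML library. Means were 21.7 ± 2.41 CPM for CML and 54.6 ± 20.5 CPM for CML-TKI (SD, n = 4 each), and Crat rose by 1.32 on the log2 scale (standard error 0.30, 95% interval 0.64 to 1.99, adjusted p = 0.024 by edgeR's quasi-likelihood test). When single libraries were dropped, Crat kept a log2 fold change of 1.07 to 1.45, but its call was lost for CML 1 (adjusted p = 0.0888), CML 2 (0.0847), CML 3 (0.0754) and CML-TKI 4 (0.0533). Its adjusted p was 0.292 with CML 1 to 3 summed to 1 library. Crat shares 59 exonic bases (GENCODE M21) with Dolpp1 on the other strand, whose log2 fold change was 0.50 (adjusted p = 0.324).

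Crot, the peroxisomal carnitine octanoyltransferase that prepares shortened chains for export to mitochondria, moved in the other direction without passing the threshold. Crot was at 63.9, 72.4, 65.9 and 45.4 CPM in CML and at 37.0, 19.8, 28.5 and 38.8 CPM in CML-TKI libraries. All CML-TKI libraries were below all CML libraries, with CML 5 nearest to them. The log2 fold change was -0.99 (standard error 0.28, 95% interval -1.62 to -0.36, adjusted p = 0.0544). It passed the threshold without CML-TKI 1 (adjusted p = 0.0343), with library totals without Rn45s in place of TMM (0.039), with DESeq2 (0.0103) and with limma-voom (0.0176). The adjusted p of Crot rose to 0.151 without CML 1, 0.158 without CML 2, 0.143 without CML 3 and 0.41 with CML 1 to 3 summed. The ratio of Crat to Crot, looked at after their values were seen and so given with no test, was 0.238, 0.219, 0.264 and 0.429 per transcript length in CML and 0.85, 1.49, 2.26 and 1.17 in CML-TKI libraries.

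Of the carnitine palmitoyltransferases, Cpt1a, which catalyses the rate-limiting transfer of long chains to carnitine at the outer mitochondrial membrane, was at 181, 234, 229.8 and 149.9 CPM in CML and at 107, 176, 83.3 and 171 CPM in CML-TKI libraries. CML-TKI 2 and 4 lay within the range of the CML libraries and CML-TKI 1 and 3 below it. The log2 fold change was -0.56 (95% interval -1.19 to 0.08, adjusted p = 0.253). Cpt2, which returns the chain to CoA on the inner membrane, had means of 35.9 ± 3.95 CPM for CML and 36.7 ± 9.41 CPM for CML-TKI (SD, n = 4 each), and the interval of its log2 fold change, -0.58 to 0.62, holds changes of less than 1 in either direction. The estimated count of the muscle form Cpt1b rounded to 0 in 7 libraries, in 6 of which it was above 0, and to 12 in CML-TKI 3. Its exons share 2744 bases with Gm44502 on the same strand, and it was not tested.

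All 4 genes for oxidation of unsaturated fatty acids had fold changes below 0. Decr1 (chromosome 4, 15917240 to 15945377, minus strand), which reduces dienoyl-CoA so that chains with double bonds can re-enter the cycle, was at 41.9, 41.5, 36.3 and 36 CPM in CML and at 22.8, 16.4, 14.2 and 10.7 CPM in CML-TKI libraries. The highest CML-TKI library, CML-TKI 1, was well below the lowest CML library. Decr1 fell from 38.9 ± 3.21 to 16 ± 5.09 CPM (SD, n = 4 each), a change of -1.27 on the log2 scale (standard error 0.30, 95% interval -1.94 to -0.60, adjusted p = 0.0269 by edgeR's quasi-likelihood test). Dropping single libraries gave values from -1.51 to -1.11, and the call was lost for CML 1 (adjusted p = 0.102), CML 2 (0.0909), CML 3 (0.0745), CML 5 (0.0502), CML-TKI 2 (0.0535) and CML-TKI 4 (0.0532). With CML 1 to 3 summed the adjusted p of Decr1 was 0.29.

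The other 3 of these genes were not called. Ech1, a dienoyl-CoA isomerase, was at 43.3, 45.2, 42.1 and 72.0 CPM in CML and at 29.8, 23.2, 12.1 and 33.3 CPM in CML-TKI libraries. CML 5 was highest and CML-TKI 3 lowest, and the groups did not overlap (log2 fold change -1.01, 95% interval -1.78 to -0.25, adjusted p = 0.092, 0.0303 with DESeq2 and 0.136 with limma-voom). Eci1, a mitochondrial enoyl-CoA isomerase, was at 20.2, 23.5, 23.6 and 23.4 CPM in CML and at 12.3, 13.9, 0 and 7.8 CPM in CML-TKI libraries. The 0 in CML-TKI 3 allows up to 3.29 CPM, and the 3 other CML-TKI libraries were also below every CML library (log2 fold change -1.33, standard error 0.65, adjusted p = 0.235). Eci2, the isomerase found in both mitochondria and peroxisomes, overlapped between the groups (48.2 ± 4.09 and 36.8 ± 7.51 CPM, SD, n = 4, log2 fold change -0.39, 95% interval -0.93 to 0.15). Summed over the 4 genes, the level was 149, 158, 151 and 185 CPM in CML and 109, 80.0, 65.8 and 89.0 CPM in CML-TKI libraries. The median log2 fold change of these 4 was -1.14, and 3 of the 4 were lower without overlap, where 13.1% of all genes were. Only 1 of the 4 was called. The roles were chosen with earlier results of these data known, so the share for this role is a description and not a test.

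Among the acyl-CoA dehydrogenases, which carry out the first oxidation of the cycle on chains of different length, none passed the threshold. Acadvl, for very long chains, was at 36.1 to 38.6 CPM in the CML libraries and at 32.9, 22.9, 81.1 and 29.1 CPM in CML-TKI libraries. CML-TKI 3 alone was above the CML range and the other 3 were below it, and the log2 fold change was 0.10 (95% interval -0.75 to 0.96). Acadl, for long chains, was also spread to both sides of the CML libraries, at 40.5 to 106 CPM against 52.1 to 75.9 CPM (log2 fold change 0.11, 95% interval -0.59 to 0.81). Acadm, for medium chains, was at 52.6, 43.0, 41.2 and 49.8 CPM in CML and 25.6, 31.0, 41.6 and 28.9 CPM in CML-TKI libraries, where CML-TKI 3 reached the lowest CML library (log2 fold change -0.57, 95% interval -1.12 to -0.02, adjusted p = 0.182). Acads, for short chains, was at 61.7, 57.1, 56.4 and 92.1 CPM in CML and 36.5, 28.5, 35.1 and 58.8 CPM in CML-TKI libraries, with CML-TKI 4 within the CML range (log2 fold change -0.75, 95% interval -1.40 to -0.09, adjusted p = 0.14). Acadsb, which acts on short branched chains from isoleucine, had 21.6 ± 5.64 and 31.1 ± 11.5 CPM (SD, n = 4, log2 fold change 0.53, adjusted p = 0.416).

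The 3 electron transfer genes also had fold changes below 0, and none passed the threshold. Etfa and Etfb encode the subunits of electron transfer flavoprotein and Etfdh its dehydrogenase at the ubiquinone pool. Etfa was at 16.6 ± 1.66 and 16.1 ± 5.99 CPM (SD, n = 4, log2 fold change -0.03, 95% interval -0.82 to 0.76). Etfb ranged from 46.0 to 87.0 CPM in CML and from 18.0 to 63.6 CPM in CML-TKI libraries (log2 fold change -0.48, 95% interval -1.37 to 0.42), and Etfdh from 19.2 to 34.6 and from 13.2 to 30.4 CPM (log2 fold change -0.29, 95% interval -1.04 to 0.46).

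The genes of the mitochondrial cycle itself were spread to both sides of 0. Hadha and Hadhb, the subunits of the trifunctional protein that carries out the later steps on long chains, lie head to head on chromosome 5 (30119423 to 30154980 and 30155253 to 30184593). Hadha was at 91.8, 86.7, 84.8 and 76.3 CPM in CML and 85.7, 116, 96.4 and 111 CPM in CML-TKI libraries. Hadhb was at 69.7, 64.7, 70.3 and 51.7 CPM and 58.1, 97.0, 82.2 and 98.6 CPM. In both genes CML-TKI 1 was inside the CML range and the other 3 were above it, with log2 fold changes of 0.27 (95% interval -0.16 to 0.69) and 0.39 (95% interval -0.13 to 0.91). Hadh, the hydroxyacyl-CoA dehydrogenase for shorter chains, was at 62.1, 68.5, 68.0 and 74.9 CPM in CML and 42.9, 33.5, 60.3 and 28.1 CPM in CML-TKI libraries. CML-TKI 3 came close to CML 1 without overlap (log2 fold change -0.75, standard error 0.27, 95% interval -1.35 to -0.15, adjusted p = 0.109), and Hadh passed the threshold without CML-TKI 3 (adjusted p = 0.032), with DESeq2 (0.0465) and with limma-voom (0.0204). The adjusted p of Hadh was 0.208 without CML 1, 0.218 without CML 2, 0.216 without CML 3, 0.195 without CML-TKI 4 and 0.421 with CML 1 to 3 summed. Hsd17b10, a mitochondrial dehydrogenase of branched-chain acyl-CoAs and steroids that is also a subunit of mitochondrial RNase P, was at 58.3, 56.0, 61.3 and 85.5 CPM in CML and 37.4, 53.3, 37.3 and 13.3 CPM in CML-TKI libraries. All 4 were below the CML libraries, CML-TKI 2 only slightly (log2 fold change -0.89, 95% interval -1.74 to -0.04, adjusted p = 0.176, 0.122 with DESeq2 and 0.0307 with limma-voom).

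The remaining genes of the cycle overlapped between the groups. Echs1, the short-chain enoyl-CoA hydratase, had 39.4 ± 6.93 and 45.4 ± 14.3 CPM (SD, n = 4, log2 fold change 0.20, 95% interval -0.43 to 0.83). Acaa2, a mitochondrial thiolase, had 31.6 ± 3.33 and 42.3 ± 13.5 CPM (log2 fold change 0.42, 95% interval -0.24 to 1.08), and Acat1, the acetoacetyl-CoA thiolase, had 56.0 ± 7.62 and 48.3 ± 10.5 CPM (log2 fold change -0.22, 95% interval -0.76 to 0.31).

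**Figure D3:**
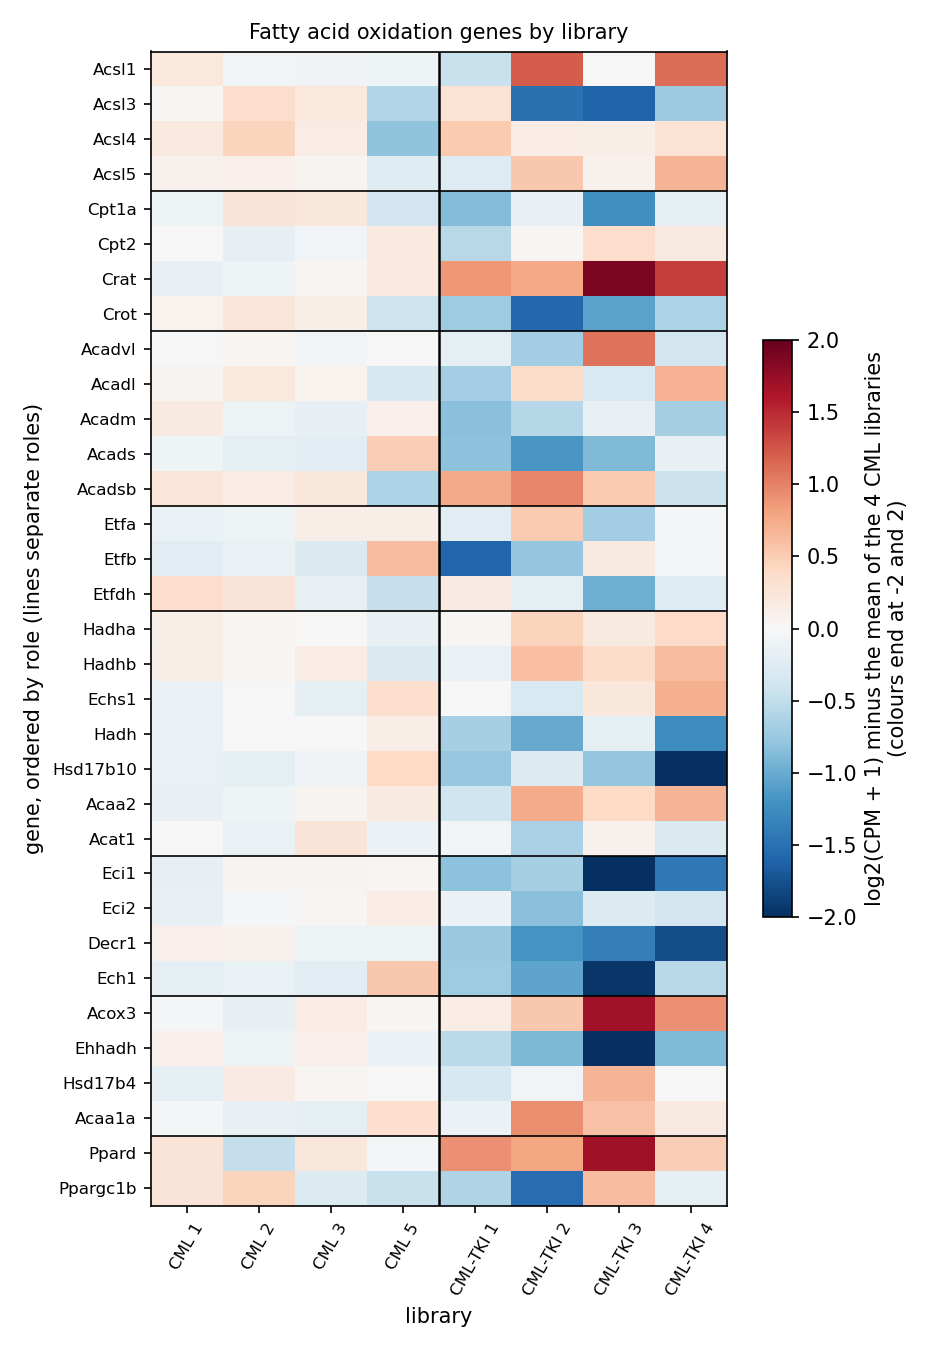
Log2(CPM + 1) of each tested member minus the mean of the 4 CML libraries (colour), by library (columns) and gene (rows, in blocks by role). CML-TKI libraries vary among themselves in many rows, as in Acadvl (22.9 to 81.1 CPM) and Acsl3 (7.67 to 31.1 CPM), while Crat and Decr1 keep 1 colour across all 4.

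Acyl-CoA synthetases activate fatty acids for oxidation as well as for lipid synthesis, and none of the 4 tested was called. Acsl5 was the most abundant, at 130.1, 131, 128 and 103 CPM in CML and 102, 179, 130.4 and 197 CPM in CML-TKI libraries (log2 fold change 0.31, 95% interval -0.23 to 0.85). Per transcript length it made up 45.8% to 53.3% of the family in CML and 41.3% to 55.1% in CML-TKI libraries. Acsl1, the main form in oxidative tissues, was at 31.9 to 39.2 CPM in CML and at 24.7, 80.0, 34.0 and 74.4 CPM in CML-TKI libraries. CML-TKI 2 and 4 were above all CML libraries and CML-TKI 1 below them (log2 fold change 0.66, 95% interval -0.19 to 1.5, adjusted p = 0.311). Acsl3, a form on the endoplasmic reticulum and lipid droplets, was at 25.9, 32.4, 29.6 and 16.5 CPM in CML and 31.1, 8.37, 7.67 and 14.8 CPM in CML-TKI libraries. CML-TKI 1 was as high as the CML libraries and the other 3 were below all of them (log2 fold change -0.71, 95% interval -1.77 to 0.35, adjusted p = 0.384), and without CML-TKI 1 Acsl3 was called. Acsl3 shares 206 exonic bases with Utp14b on the same strand, and its estimated counts were not whole in 7 libraries. Acsl4, which prefers arachidonate, had 61.1 ± 19.9 and 70.8 ± 9.41 CPM (SD, n = 4, log2 fold change 0.22, 95% interval -0.41 to 0.84), with CML 5 lowest at 33 CPM. Acsl6 had at most 12 counts in any library and was not tested.

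The peroxisomal enzymes were not called. Acox3, an acyl-CoA oxidase of branched chains, was at 37.9, 34.4, 42.9 and 39.7 CPM in CML and 42.7, 56.7, 126 and 73.6 CPM in CML-TKI libraries. CML-TKI 1 lay just under CML 3 and the others above the CML range (log2 fold change 0.93, 95% interval 0.20 to 1.66, adjusted p = 0.103), and Acox3 was called without CML-TKI 1 and with limma-voom. It shares 700 exonic bases with 4931431C16Rik on the other strand, and strand was not stated to be used in the counting. Ehhadh, the peroxisomal bifunctional enzyme, was at 12.8, 11.0, 12.8 and 10.9 CPM in CML and 7.79, 5.89, 0 and 5.98 CPM in CML-TKI libraries (log2 fold change -1.17, standard error 0.67, adjusted p = 0.304). All CML-TKI libraries were lower, and CML-TKI 3 had no count. Hsd17b4, the D-bifunctional protein, had 46.4 ± 4.49 and 50.5 ± 16.6 CPM (SD, n = 4, log2 fold change 0.11, 95% interval -0.49 to 0.70). Acaa1a, a peroxisomal thiolase with the close copy Acaa1b and so uncertain, had 31.4 ± 5.56 and 42.8 ± 13.9 CPM (log2 fold change 0.44, 95% interval -0.22 to 1.10).

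Of the regulators, Ppard, the PPAR form found in most tissues, was at 11.8, 6.76, 11.6 and 9.62 CPM in CML and 19.2, 17.7, 34.0 and 14.0 CPM in CML-TKI libraries. The groups did not overlap, but the log2 fold change of 1.07 (standard error 0.40, 95% interval 0.17 to 1.96) was not past the threshold (adjusted p = 0.124). Ppargc1b, which encodes PGC-1β, was at 37.5, 42.8, 25.7 and 22.7 CPM and 20.1, 10.2, 48.2 and 27.3 CPM (log2 fold change -0.32, 95% interval -1.32 to 0.69). CML-TKI 2 was lowest and CML-TKI 3 highest of all. Ppara, the receptor best known for this pathway in liver, had at most 2 counts in the CML libraries and 7 in CML-TKI 3, with 0 in the other CML-TKI libraries, and was not tested.

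Levels were ordered per transcript length (CPM per kilobase of the median coding transcript of GENCODE M21). In CML libraries the highest were Hsd17b10 with 66.8 ± 14.0, Etfb with 65.3 ± 21.6 and Cpt1a with 46.0 ± 9.35 (SD, n = 4), and the first and second do not differ beyond their spread. In CML-TKI libraries the highest were Etfb with 47.5 ± 23.4, Hadhb with 41.1 ± 9.17 and Acadl with 37.0 ± 15.6 (SD, n = 4), within each other's spread. Crat moved from place 31 of 36 in CML to place 21 in CML-TKI libraries and Decr1 from 22 to 31. Ehhadh was at place 33 in both groups, above only Acsl6, Ppara and Cpt1b.

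**Figure D4:**
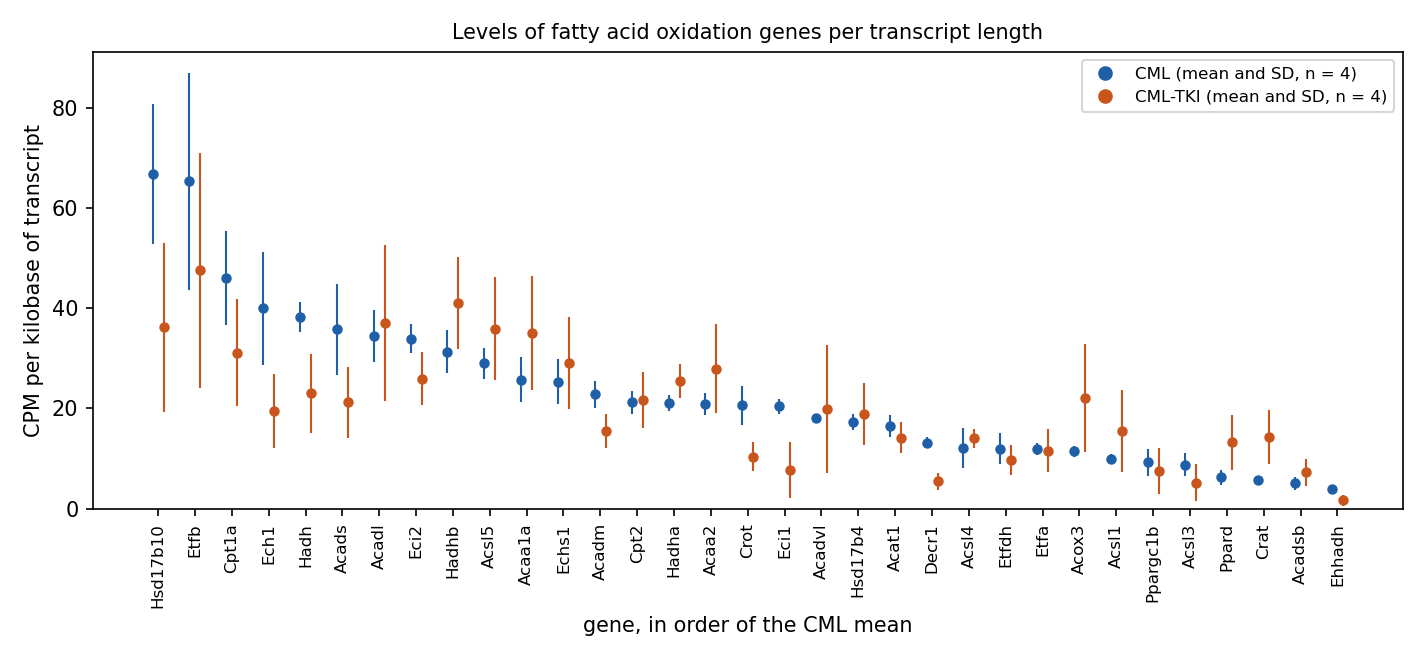
CPM per kilobase of transcript (mean and SD, n = 4) of the 33 tested members in the order of their CML mean, for CML and CML-TKI libraries. Hsd17b10 and Etfb lead in CML libraries with 66.8 and 65.3, and the error bars of the CML-TKI group are wider for most genes.

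The width of the intervals sets what can be said of the genes that were not called. The standard error of the log2 fold change was between 0.19 (Hadha) and 0.67 (Ehhadh), with a median of 0.30. For 12 members, Acsl4, Acsl5, Cpt2, Acadvl, Acadl, Etfa, Hadha, Hadhb, Echs1, Acat1, Eci2 and Hsd17b4, the 95% interval lay within -1 and 1, so that a change of more than 2-fold lay outside it. For the other uncalled members the interval held a change of at least 2-fold.

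Other genes around the pathway were taken from a list of 76, of which 73 were in the table (Fabp3, Tmlhe and Ucp3 were not under these names) and 66 were tested. In CML-TKI libraries 5 were called higher and 2 lower, 10.6% of those tested against 10.2% of all genes, and their median log2 fold change was -0.002. Abcd2, a peroxisomal transporter of very long-chain fatty acyl-CoA, was at 3.27, 2.7, 3.48 and 1.24 CPM in CML and 14.4, 115, 85.5 and 74.9 CPM in CML-TKI libraries. CML-TKI 1 was lowest of its group and still above every CML library (log2 fold change 4.75, 95% interval 3.32 to 6.19, adjusted p = 0.00217 by edgeR's quasi-likelihood test). Dropping single libraries gave Abcd2 values from 4.42 to 5.10 and kept its adjusted p at or under 0.0134, but it was 0.0585 with CML 1 to 3 summed.

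Plin2, a coat protein of lipid droplets from the list of co-regulators and targets (10 tested, 1 called in each direction), was at 31.5, 29.7, 37.7 and 43.7 CPM in CML and 79.2, 94.5, 64.7 and 53.6 CPM in CML-TKI libraries (log2 fold change 1.04, adjusted p = 0.0312). In the lipolysis list 2 of 6 were called (33.3%), against 20% in the list of co-regulators and targets and 10.2% of all genes. These counts are too small to be read as results about the lists. Abhd5, the activator of the triglyceride lipase encoded by Pnpla2, was at 14.0 to 16.8 CPM and 30.2 to 70.7 CPM (log2 fold change 1.58, adjusted p = 0.0154), and Mgll, the monoglyceride lipase, was at 8.3 to 11.4 and 11.5 to 44.9 CPM (log2 fold change 1.64, adjusted p = 0.0419). The groups did not overlap in any of these 3 genes, with CML-TKI 2 just above the CML libraries for Mgll. Pnpla2 itself had 47.5 ± 12.6 and 33.3 ± 5.16 CPM (SD, n = 4) and was not called (log2 fold change -0.51, adjusted p = 0.265), and neither were Lpl (-0.41, adjusted p = 0.796), Lipa (0.34, adjusted p = 0.675) and Lipe (-0.10, adjusted p = 0.882). In the list of acyl-CoA thioesterases 1 of 6 was called (16.7%, where 10.2% of all genes were). Acot2 of this list, named after its values were seen, was lower without overlap (log2 fold change -1.94, adjusted p = 0.0524). Acot2 was not called in the main fit or without any 1 CML library, but was with DESeq2 and limma-voom. Acot9, a mitochondrial acyl-CoA thioesterase, was called higher (log2 fold change 1.05, adjusted p = 0.0433). All 4 calls were lost without CML 1, CML 2 or CML 3, with adjusted p up to 0.114 for Plin2, 0.0622 for Abhd5, 0.126 for Mgll and 0.149 for Acot9. The call of Plin2 was also lost without CML-TKI 2 (0.0774), that of Mgll without CML 5 (0.0961), CML-TKI 3 (0.0718) or CML-TKI 4 (0.0949), and that of Acot9 without CML 5 (0.0738), CML-TKI 2 (0.099) or CML-TKI 4 (0.0832). With library totals without Rn45s, Plin2 (0.0591), Mgll (0.057) and Acot9 (0.0744) were not called, and with no filter on low counts Mgll (0.0556) and Acot9 (0.069) were not.

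The genes called lower were Sirt3 and Mmab. Sirt3, the mitochondrial deacetylase known to act on acyl-CoA dehydrogenases, was at 54.6, 53.5, 55.3 and 72.7 CPM in CML and 21.3, 14.6, 16.4 and 8.85 CPM in CML-TKI libraries. All CML-TKI libraries were far below all CML libraries (log2 fold change -1.95, 95% interval -2.65 to -1.25, adjusted p = 0.0047), and with any 1 library left out the adjusted p stayed at or under 0.0212, though it was 0.0849 with CML 1 to 3 summed. Mmab, which makes the cobalamin cofactor used in propionyl-CoA breakdown, was at 19.3 to 38.8 CPM and 7.28 to 12.5 CPM (log2 fold change -1.52, adjusted p = 0.0276). Its call was lost without any of CML 1, 2, 3 and 5 (0.0514 to 0.0879), without CML-TKI 2 (0.0611), without CML-TKI 4 (0.0605) and with limma-voom (0.0717). No gene was called in the lists for uptake and binding (5 tested), carnitine supply and translocation (4), malonyl-CoA control (8), further mitochondrial dehydrogenases (7) and ketone bodies (3).

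**Figure D5:**
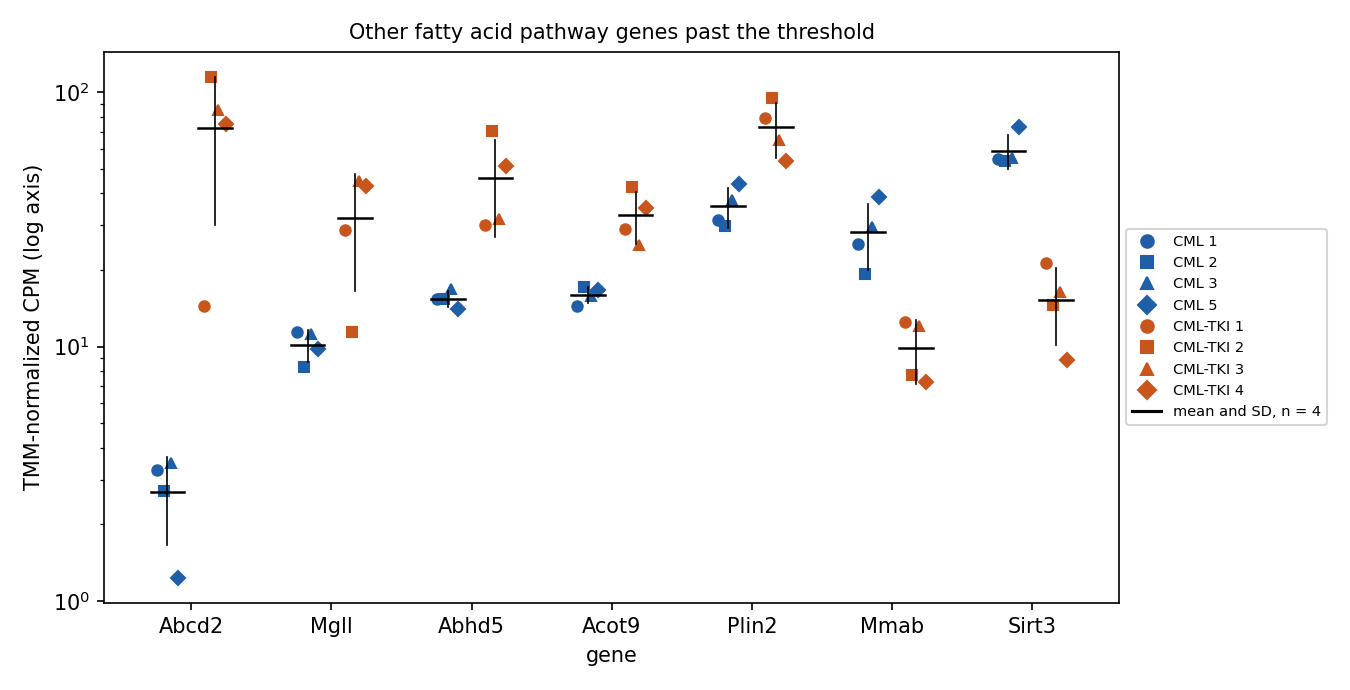
TMM-normalized CPM (log axis) of the 7 other pathway genes past the threshold, by library, with means and SDs (n = 4). Abcd2 rises from 2.67 to 72.5 CPM on average and Sirt3 falls from 59.0 to 15.3 CPM. In all 7 genes the groups do not overlap, where 23.4% of all genes are separated. The 7 were picked by the test on these same libraries, so this separation is no further support.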

How the data were processed

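RNA was isolated with the RNeasy Plus kit, libraries were made with Nextera XT, and the authors aligned reads to mm10 (GRCm38) with STAR 2.6.1d and quantified RefSeq transcripts with Partek (version 8.0 per the submitters' processing notes). The authors deposited estimated counts per gene, not normalized, 1 column per library. Columns were matched to labels by group and number. No label has the number 5, so CML 5 entered as an unnumbered CML library. No pair within a group matched within counting noise, so none was merged (chi-square per degree of freedom 3.46 to 4.66 among CML 1 to 3, 48.0 to 51.9 between these and CML 5, and 22.8 to 56.4 among CML-TKI libraries). This does not show that they are separate animals.

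After rounding, the tests were run in R 4.3.3 with edgeR 4.0.16, using TMM scaling, filterByExpr (minimum count 10, minimum total 15), robust dispersions and the quasi-likelihood test over 11937 genes with Benjamini-Hochberg adjustment. A standard error is the size of the fitted log2 change over the root of its F statistic. DESeq2 1.42.0, limma 3.58.1 (voom with quality weights), other scalings, filters and sets of libraries were alternatives. On simulated counts with 190 of 11653 genes changed 4-fold, 49.5% were recovered and 4.1% of calls were false. The simulation gave both groups the same dispersion for a gene and drew every library independently. In the data the biological coefficient of variation was 28.2% for CML and 68.6% for CML-TKI libraries. The simulated shares therefore check the code and are not error rates for these libraries. The members, lists and roles were chosen with earlier results of these data known. All 36 members were to be described, and at most 8 other pathway genes in each direction. Mut was matched through its newer symbol Mmut. Coordinates and promoters came from RefSeq tables of GRCm38.p6.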

Additional observations from a re-analysis of the deposited data

Results flagged for a closer look

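Among 80 sets of 4 libraries (33 members and 7 other pathway genes, in each group), 8 had 1 library far from the other 3, where about 4 arise by chance. CML 5 stood apart in 4 of them, with Acsl5 at 103 CPM and Acadsb at 13.2 CPM, below the other CML libraries, and Ech1 at 72.0 CPM and Sirt3 at 72.7 CPM, above them. CML 1 stood apart in 2, with Acsl1 at 39.2 CPM, above the other CML libraries, and Eci1 at 20.2 CPM, below them. CML-TKI 3, the library with the fewest counts, had 0 CPM of Eci1 and 0 CPM of Ehhadh and was the lowest of its group in both.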

How the results depend on the processing

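Neither Crat nor Decr1 changed direction under any alternative, and both calls held with each other tool, scaling and filter, but they depended on which libraries were used, and the cause was not tested. The number of genes called, 1220, was 2157 with DESeq2, 2563 with limma-voom, 122 with CML 1 to 3 summed, and from 505 (without CML 1) to 2504 (without CML-TKI 1) when single libraries were dropped. Members called higher and lower, 1 and 1, were 2 and 4 with limma-voom, 1 and 4 with DESeq2, 1 and 2 with library totals without Rn45s, 0 and 0 with CML 1 to 3 summed, 0 to 2 and 0 to 3 with each library left out (0 and 0 without CML 1, CML 2, CML 3 or CML-TKI 4, 2 and 3 without CML-TKI 1), and 1 and 0 without CML 5 and CML-TKI 3 together, an alternative chosen after seeing the data. Other pathway genes called higher and lower, 5 and 2, were 8 and 7 with limma-voom, 2 and 4 with library totals without Rn45s, 0 and 0 with CML 1 to 3 summed, and 1 to 8 and 1 to 8 with each library left out (1 and 1 without CML 1, CML 2 or CML 3, 8 and 8 without CML-TKI 1); 3 were higher with no filter on low counts and 5 lower with DESeq2. Library totals without Rn45s shifted all genes by -0.14 at the median (log2). The numbers shared by libraries 1 to 3 of both groups are not stated to pair animals, and the deviations of same-numbered libraries had correlations of -0.042, 0.097 and 0.093, where those of libraries with different numbers ranged from -0.102 to 0.099. On these 6 libraries the replicate block gave 193 genes against 589 without it, 0 members with either, and 0 and 0 other pathway genes with the block against 2 and 1 without it. CML-TKI 3, with 1041552 counts, limits the lowest members.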

Other observations

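Decr2, Pex5 and Pex7, peroxisomal genes outside the members, were each lower in all 4 CML-TKI libraries than in any CML library without passing the threshold. Decr2, the peroxisomal counterpart of Decr1, was at 11.8 to 14.4 CPM in CML and 5.72 to 8.36 CPM in CML-TKI libraries (log2 fold change -0.83, adjusted p = 0.209). The import receptors Pex5 and Pex7 had log2 fold changes of -0.88 (adjusted p = 0.0628) and -0.85 (adjusted p = 0.136). Pex5 was called with DESeq2, with limma-voom and without CML-TKI 1, and under no other alternative.

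Prkaa1, a catalytic subunit of the AMP-activated kinase, was at 61.8, 64.3, 74.6 and 43.2 CPM in CML and 155, 95.1, 116 and 87.7 CPM in CML-TKI libraries, without overlap (log2 fold change 0.90, adjusted p = 0.0551). It was called with DESeq2 and with limma-voom, and under no other alternative. The propionyl-CoA carboxylase subunits differed in direction, with Pcca higher (0.36 on the log2 scale, adjusted p = 0.442) and Pccb lower (-0.75, adjusted p = 0.14), both without overlap and without a call. These genes were named after their values were seen.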
